A study of Mus musculus with 15 samples.

Results

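The 32 genes described here encode the enzymes and transporters that carry glucose to pyruvate, turn pyruvate into lactate or pass it to the mitochondria. They were chosen by name for their function, with earlier results of these data known, so their counts beside all genes are descriptions. They comprise the glucose transporter Slc2a1, the enzymes of the glycolytic steps with their PFKFB regulators and 2 phosphoglucomutases. The genes of lactate formation and transport and those of pyruvate dehydrogenase E1 and its kinases complete them. All 32 were in the batch 1 count table of 46078 genes, and 31 were among the 13063 named genes of the batch 2 table. Aldoc was the exception. It had at most 0.673 CPM (counts scaled to the library total) in batch 1 and did not pass the filter on low counts, so 31 genes were tested in each comparison.

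The cells were mouse satellite cells of hindlimb muscle, the resident stem cells of skeletal muscle, kept in growth medium with horse serum and treated in culture for 24 h. Batch 1 held 3 DMSO libraries and 3 with 0.05 mM adenosine, the nucleoside. Batch 2 comprised 3 groups of 3 libraries, namely DMSO, adenosine at 0.1 mM and AMP (adenosine with a phosphate) at 0.25 mM, and its labels give the strain C57BL/6J, which those of batch 1 do not state. No genotype, age or sex is given for any group. The series title places the study in muscle regeneration in diabetic mice, and the comparison with DMSO asks what these extracellular purines do to the cells' mRNA.

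Glycolysis splits glucose into pyruvate and yields ATP and NADH without oxygen. Lactate dehydrogenase regenerates NAD by reducing pyruvate to lactate, while the pyruvate dehydrogenase complex commits pyruvate to the citric acid cycle and is switched off when its kinases phosphorylate the E1 alpha subunit. In muscle stem cells, leaving quiescence and proliferating are known to go with higher glycolysis. Several steps have more than 1 gene, with forms typical of adult muscle such as Pfkm and Eno3, and the transcription factors HIF1 and MYC are known to bind short motifs near many of these genes.

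The batch 1 libraries held 14683346 to 20799588 counts and those of batch 2 held 11107450 to 14201933. The origin of the 3 replicates in separate animals or cultures is not stated, so each p-value rests on a spread among libraries that may be technical only. Fold changes were fitted with TMM scaling, which centres most genes near 0, whereas CPM are plain shares of the library total. Using library totals instead of TMM shifted the all-gene median change (log2) by 0.20 in batch 1, 0.31 for adenosine in batch 2 and 0.27 for AMP, so a treated CPM looks higher against DMSO than the fitted change. The share of higher genes among those called moved with it, from 50.1% to 67.4% in batch 1, from 50.3% to 68.7% for adenosine in batch 2 and from 51.4% to 69.9% for AMP.

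The labelled cell type was checked against 10 genes of satellite cells and myoblasts, such as Pax7 and Myod1. All 10 were measured in both tables and none was at 0 in any group. Their summed CPM was 7869 to 8265 with DMSO and 4483 to 5396 with adenosine in batch 1, and 5895 to 6382 with DMSO, 3240 to 3938 with adenosine and 3650 to 4466 with AMP in batch 2. Pax7 was at 59.1 ± 5.1 and 60.6 ± 4.4 CPM in batch 1 and at 41.7 ± 4.04, 65.9 ± 3.77 and 77.1 ± 7.97 CPM in batch 2, and Myod1 at 2735 ± 127 and 1168 ± 223 CPM in batch 1 and at 1530 ± 172, 719 ± 59.4 and 882 ± 87.1 CPM in batch 2, in the same order (SD, n = 3). Of the 10 genes, 7, 7 and 6 were called lower and 2 higher in the 3 comparisons with DMSO, the latter being Sdc4 and Chrdl2 in batch 1 and Pax7 and Sdc4 in batch 2. The summed levels of leukocyte, adult myofibre and endothelial markers were higher with treatment, each mostly through 1 gene. The summed level of fibro-adipogenic progenitor markers overlapped between groups in both batches, at 102 to 136 and 67.8 to 146 CPM in batch 1. Of the 2 measured in batch 2, Dcn was called higher and Gsn lower with either treatment. Dcn was at 0.629 ± 0.423 CPM with DMSO, 2.53 ± 1.53 with adenosine and 2.31 ± 1.66 with AMP. Gsn was at 67.8 ± 3.68, 64.6 ± 11.2 and 61.6 ± 4.32 CPM in that order. The summed level of smooth muscle and pericyte markers overlapped in batch 1, where 1 of 4 tested genes was called higher and 2 lower. Kcnj8 was at 1.63 ± 0.829 CPM with DMSO and 0 with adenosine there, and Cnn1 at 0.15 ± 0.136 and 2 ± 0.813 CPM. The 1 gene of this list measured in batch 2 was lower, at 1.41 to 2.26 CPM with DMSO, 0.235 to 0.508 with adenosine and 0.341 to 0.72 with AMP. Red blood cell markers were at 1.59 to 1.86 and 1.29 to 1.36 CPM in batch 1. In batch 1, where 9 of 12 leukocyte genes were measured, their sum was 1.99 to 3.33 CPM with DMSO, with Adgre1, Csf1r and S100a8 at 0, and 13.9 to 20.8 CPM with adenosine, of which Cd68 made up 11.1 to 14.8 CPM. The sum of 10 adult myofibre genes was 10.9 to 25 CPM with DMSO, with Myh2, Myh4 and Myh7 at 0, and 65.2 to 88.2 CPM with adenosine, of which Mylk2 made up 61.6 to 82.1 CPM, while Pygm was at 5.5 ± 1.26 and 3.84 ± 2.07 CPM. The 8 endothelial genes summed to 11.5 to 12.4 CPM with DMSO and 23 to 29.7 CPM with adenosine, with Tek at 15.2 to 19.9 CPM and Egfl7 lower in mean, at 4.71 ± 1.45 and 2.99 ± 0.269 CPM. In batch 2, 2 leukocyte genes, Cd68 and Csf1r, were measured and summed to 1.65 to 3.31 CPM with DMSO, 12.1 to 15.7 CPM with adenosine and 12.3 to 16.3 CPM with AMP. The part of these cells or genes in the changes below was not tested. In bulk samples, fewer cells of a type and less RNA per cell cannot be told apart.

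Pkm, the gene of pyruvate kinase M, whose splice forms gene counts do not separate, had the highest level per length of all members. Its deposited FPKM (fragments scaled to gene length and library) was 1322 ± 109 in the DMSO libraries of batch 1 and 1219 ± 32 in those of batch 2 (SD, n = 3), which ranked it 34th of 27573 and 37th of 13063 genes. Ldha followed at 572 ± 46.5 and 586 ± 42 FPKM, then Gapdh at 450 ± 28.2 and 480 ± 17. Eno1 came next with 436 ± 20.1 and 384 ± 16.4 FPKM and Aldoa with 396 ± 9.07 and 370 ± 7.45 FPKM. Gapdh and Eno1 of batch 1 lay within their spread of each other, as did Eno1 and Aldoa of batch 2. The neuronal enolase gene Eno2 (0.142 ± 0.0298 FPKM) and Aldoc (0.114 ± 0.0989 FPKM) closed the order in batch 1. The order of the leading genes differed after treatment. With adenosine Aldoa stood second at 695 ± 22.4 FPKM in batch 1 and 508 ± 2.64 FPKM in batch 2, and with AMP at 433 ± 33.9 FPKM, while Ldha was at 381 ± 34.1, 270 ± 9.15 and 283 ± 11.5 FPKM. Together the 31 or 32 members took 1.23% ± 0.0639 of all counts with DMSO and 1.27% ± 0.0528 with adenosine in batch 1. In batch 2 they took 1.14% ± 0.0249 with DMSO, 1.01% ± 0.0527 with adenosine and 0.914% ± 0.015 with AMP. In batch 2 the 6 treated libraries lay below the 3 of DMSO.

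Most members that changed were lower after treatment. In batch 1 adenosine lowered 11 of 31 members and raised 4 (adjusted p under 0.05), against 39.2% of all 13842 genes called, 19.6% higher and 19.5% lower. The median log2 fold change of the members was -0.26, beside 0.03 for all genes. In batch 2 adenosine lowered 19 of 31 and raised 6, against 69.4% of 13063 genes called, 34.9% higher and 34.5% lower, and the medians were -0.47 and 0.01. AMP lowered 21 of 31 and raised 3, against 65.6% of genes called, 33.7% higher and 31.8% lower, with medians of -0.59 and 0.01. With library totals in place of TMM the counts were 6 lower and 7 higher in batch 1, 13 and 7 for adenosine in batch 2, and 16 and 5 for AMP, with member medians of -0.06, -0.16 and -0.32. The members of batch 1 then had no excess of lower over higher calls, while all 13842 genes had 4030 called higher and 1948 lower. Of 13063 genes in batch 2, 6344 were higher and 2891 lower with adenosine, and 6037 and 2605 with AMP. All-gene medians under library totals were 0.23, 0.32 and 0.28, above the member medians in each comparison.

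The CPM of the treated and DMSO libraries did not overlap for 17 members in batch 1 (53.6% of all genes), of which 9 were above and 8 below DMSO. In batch 2 the groups did not overlap for 22 members with adenosine (74.6% of all genes) and 23 with AMP (70.7%). The 2 comparisons of batch 2 share their DMSO libraries, so their values are given side by side and are not independent. Of the 31 members, 11 were called lower in all 3 comparisons with DMSO: Hk2, Pfkl, Pfkm, Pfkp, Gapdh, Pgk1, Eno1, Eno3, Ldha, Ldhb and Pdha1. Another 8 were called lower in both comparisons of batch 2 and not in batch 1: Hk1, Gpi1, Tpi1, Pgam1, Pkm, Slc16a1, Pdk3 and Pgm1. Aldoa and Pgm2 were called higher in all 3. The kinase genes Pdk1 and Pdk4 and the regulator gene Pfkfb4 were called in none.

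**Figure D1:**
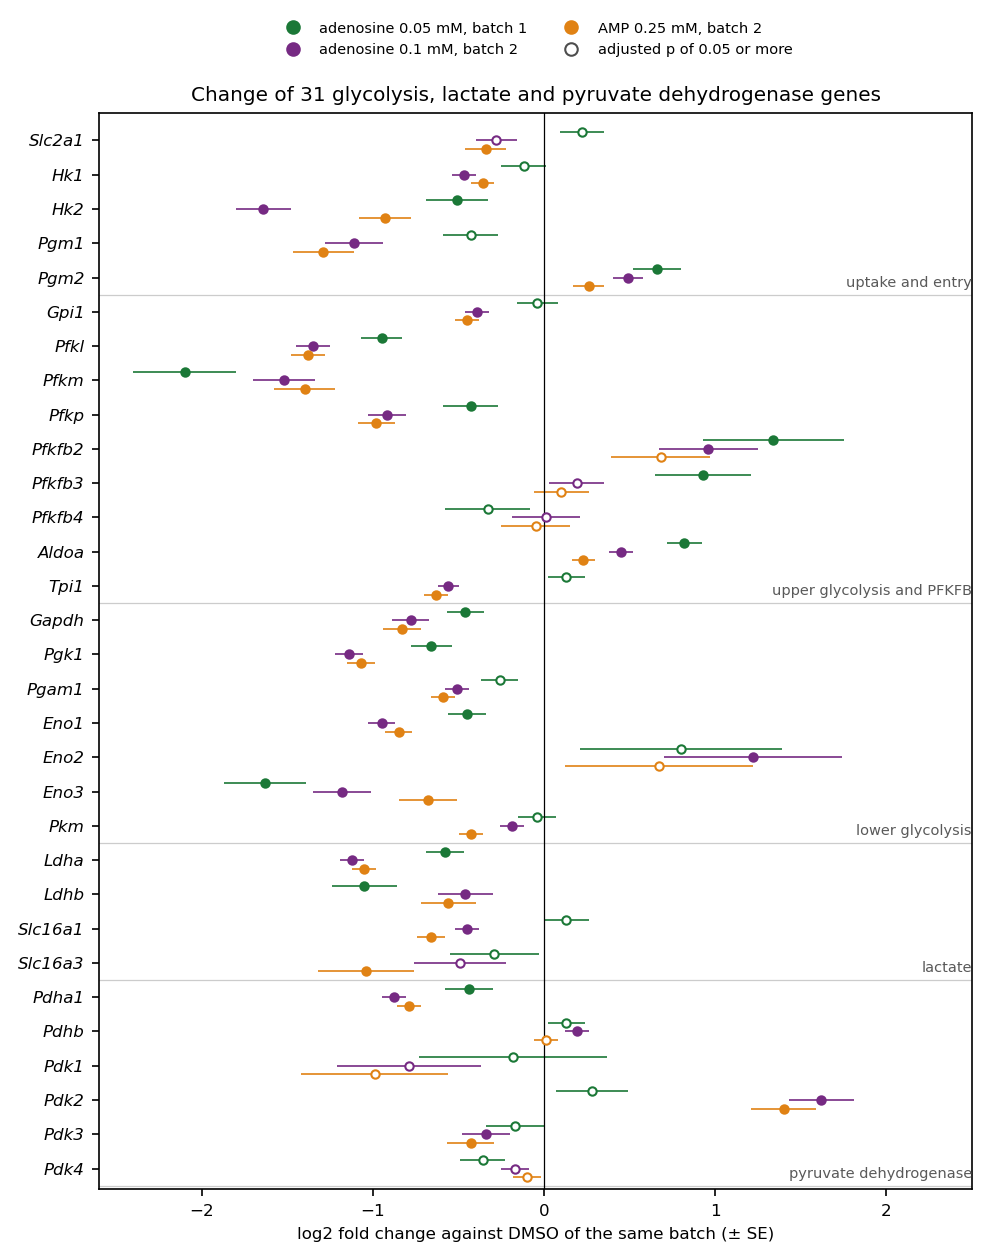
Log2 fold change with its SE (x axis) of 31 members (y axis, grouped by role) against the DMSO libraries of the same batch, with filled points for an adjusted p under 0.05 and open points otherwise. Pfkm, Eno3, Pfkl, Pgk1 and Ldha lie left of 0 in all 3 colours, and Aldoa and Pgm2 lie right of it.

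The short motif ACGTG occurred in promoter windows of some members that fell and of some that rose. It is the core of the hypoxia response element bound by HIF1, and CACGTG is an E-box bound by MYC and the carbohydrate response factor ChREBP, and it contains ACGTG. The window searched ran from 250 bases before to 50 bases after each start annotated by RefSeq on GRCm38.p6, and all 32 members matched 1 or more windows by symbol. ACGTG on either strand occurred in 24 of 48 member windows (50%), beside 19.6% of 32851 windows of all genes. By gene it occurred for 20 of 32 members, beside 21.8% of 27025 genes. A gene was counted when any of its windows held the motif. The 32 members had 48 windows and the 27025 genes had 32851, so members had more windows per gene. CACGTG occurred in 6 of 48 member windows (12.5%), beside 7.15% of all windows. ACGTG was found for 5 of the 11 members that fell in all 3 comparisons, for 6 of the 8 that were called lower in both comparisons of batch 2 alone, and for both members that rose in all 3. A match is a description of letters and not a binding site.

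The stretches of 160 bases that end just before an annotated start are printed for 5 members, 3 that fell (Ldha, Pgk1, Hk2) and 2 that rose (Pdk2, Aldoa), to show the motif in both kinds. Capitals mark ACGTG or its reverse complement CACGT, and CACGTG where both overlap. They lie at chr7:46845644-46845803 on the plus strand (Ldha), chrX:106186940-106187099 on the plus strand (Pgk1), chr6:82774455-82774614 on the minus strand (Hk2), chr11:95041372-95041531 on the minus strand (Pdk2) and chr7:126799255-126799414 on the minus strand (Aldoa), in 0 bases of annotated exons.
Ldha: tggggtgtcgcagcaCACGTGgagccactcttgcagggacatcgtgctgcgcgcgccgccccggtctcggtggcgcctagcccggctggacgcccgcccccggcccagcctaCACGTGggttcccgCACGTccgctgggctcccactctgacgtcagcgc
Pgk1: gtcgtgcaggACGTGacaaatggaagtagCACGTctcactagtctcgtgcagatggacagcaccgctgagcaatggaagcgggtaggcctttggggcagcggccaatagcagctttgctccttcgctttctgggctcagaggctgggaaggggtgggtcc
Hk2: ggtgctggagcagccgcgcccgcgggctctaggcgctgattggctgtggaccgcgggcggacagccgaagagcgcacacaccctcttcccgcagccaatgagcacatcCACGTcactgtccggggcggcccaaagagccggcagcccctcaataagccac
Pdk2: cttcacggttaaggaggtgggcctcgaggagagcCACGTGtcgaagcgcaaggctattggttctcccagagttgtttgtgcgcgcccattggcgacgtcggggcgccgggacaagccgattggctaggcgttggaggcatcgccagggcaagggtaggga
Aldoa: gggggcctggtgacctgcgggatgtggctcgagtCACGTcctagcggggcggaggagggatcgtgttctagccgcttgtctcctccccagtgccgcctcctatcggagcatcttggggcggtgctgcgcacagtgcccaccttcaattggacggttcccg

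The Ldha stretch held 3 separate runs, 2 of them the E-box, the Pgk1 stretch 2 runs and the Hk2 and Aldoa stretches 1 each. The run of Pdk2 was the E-box. Ldha and Pdk2 each have 2 windows and Aldoa 3, of which the 1 with the most matches in the printed stretch is shown. ACGTG occurred in 1 of the 2 windows of Ldha, 1 of the 2 of Pdk2 and 2 of the 3 of Aldoa. Pfkl, Pfkp, Eno1, Eno3, Ldhb and Pdha1, which fell in all 3 comparisons, had no ACGTG in their windows.

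Glucose enters the cell through transporters such as Slc2a1 (GLUT1), and hexokinase traps it as glucose 6-phosphate. Slc2a1 was at 46 to 46.5 CPM with DMSO and at 57.3 to 64.6 CPM with adenosine in batch 1, groups that did not overlap in CPM, yet the fitted change of 0.22 (SE 0.13) missed the threshold (adjusted p = 0.194). In batch 2 the groups overlapped, at 46.7 to 49 CPM with DMSO, 40.5 to 58.1 CPM with adenosine and 41.2 to 50.8 CPM with AMP. Slc2a1 was called lower with AMP (-0.34, SE 0.12, adjusted p = 0.0218) and not with adenosine (-0.28, SE 0.12, adjusted p = 0.0514). The AMP call was lost with any of DMSO replicates 2 and 3 or AMP replicates 2 and 3 left out (adjusted p of 0.052 to 0.0847) and with library totals (-0.07). Under library totals the adenosine value was 0.04, and without adenosine replicate 3 it was -0.40 (adjusted p = 0.00974).

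Hk2, the inducible hexokinase that can bind mitochondria, lies on chromosome 6 (82725025 to 82774454, GRCm38). It was at 34.5, 32.6 and 29.7 CPM in the DMSO libraries of batch 1 and at 31.5, 22.8 and 23.3 CPM with adenosine. One adenosine library lay among the DMSO libraries, and the change of -0.51 (SE 0.18, adjusted p = 0.0358) lost its call when DMSO replicate 1 or 2 or adenosine replicate 2 or 3 was left out (adjusted p of 0.0774 to 0.11). It was also lost with library totals (-0.32, adjusted p = 0.165) and with limma (-0.44, adjusted p = 0.103). In batch 2 Hk2 was at 27.2, 21.1 and 24.7 CPM with DMSO, at 9.42, 10.6 and 8.98 CPM with adenosine and at 16.7, 16.3 and 12.9 CPM with AMP. These groups did not overlap, with AMP between the other two. The log2 fold change was -1.64 (SE 0.16, adjusted p = 2.12e-07) with adenosine and -0.93 (SE 0.15, adjusted p = 7.21e-05) with AMP.

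Hk1, the hexokinase of most tissues, was at 114 to 135 CPM with DMSO and 119 to 150 CPM with adenosine in batch 1. Its batch 2 levels were 110 to 115 CPM with DMSO, 96 to 111 CPM with adenosine and 101 to 111 CPM with AMP, groups that overlapped. The fitted changes in batch 2 were -0.47 (adjusted p = 3.58e-05) and -0.36 (adjusted p = 0.000556), and both lost their call with library totals (-0.16 and -0.09), which also turned the sign in batch 1.

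The phosphoglucomutases link glycolysis to glycogen and nucleotide sugars. Pgm1, which interconverts glucose 1-phosphate and glucose 6-phosphate, was at 33.7, 26.1 and 35.5 CPM with DMSO in batch 2. It was at 19, 18.1 and 17.4 CPM with adenosine (log2 fold change -1.11, SE 0.17, adjusted p = 3.56e-05) and at 10.3, 18 and 18.9 CPM with AMP (-1.29, SE 0.18, adjusted p = 1.23e-05). Both treated groups lay below DMSO. In batch 1 Pgm1 was at 31.7 to 37.3 CPM with DMSO and 27 to 33.7 CPM with adenosine, and the change of -0.43 (SE 0.16) missed the threshold (adjusted p = 0.0515), which it passed with RLE size factors (-0.44, adjusted p = 0.0465) or without adenosine replicate 3 (-0.56, adjusted p = 0.0357).

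Pgm2, whose enzyme acts mainly on phosphopentoses, moved the other way. It was at 47.6, 48.3 and 38.4 CPM with DMSO and at 81, 90.5 and 71.8 CPM with adenosine in batch 1. The levels in batch 2 were 37.6, 38.8 and 35.9 CPM with DMSO, 61.8, 63.5 and 70.6 CPM with adenosine and 53.7, 51.5 and 57.1 CPM with AMP. Every treated library lay above the DMSO libraries of its batch. The log2 fold changes were 0.66 (SE 0.14, adjusted p = 0.00256), 0.49 (SE 0.09, adjusted p = 0.000107) and 0.26 (SE 0.09, adjusted p = 0.0147), the last of which was 0.24 without DMSO replicate 3 (adjusted p = 0.0557).

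Phosphofructokinase makes fructose 1,6-bisphosphate, the committed step of glycolysis, and all 3 of its genes fell in every comparison with DMSO. Pfkl, the liver form and the most abundant here, was at 104, 94 and 103 CPM with DMSO and at 63.4, 60.7 and 54.5 CPM with adenosine in batch 1. It was at 77, 64.3 and 77.8 CPM with DMSO, 32.5, 36.4 and 37.5 CPM with adenosine and 35.8, 29.6 and 36.1 CPM with AMP in batch 2. No treated library reached a DMSO library. The changes were -0.95 (SE 0.12, adjusted p = 9.55e-05), -1.35 (SE 0.10, adjusted p = 1.64e-08) and -1.38 (SE 0.10, adjusted p = 2.16e-08).

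Pfkm, the form of adult muscle (chromosome 15, 98092589 to 98132447), had the largest decrease of the members in batch 1. Its 18.8, 21.3 and 12.5 CPM with DMSO stood against 4.97, 6.03 and 2.96 CPM with adenosine, which is 4.29-fold lower (log2 value -2.10, SE 0.30, adjusted p = 0.000179). Levels of batch 2 were 14.4, 15.3 and 15.5 CPM with DMSO, 5.78, 7.66 and 6.01 CPM with adenosine (-1.52, SE 0.18, adjusted p = 1.97e-06) and 6.03, 8.27 and 6.23 CPM with AMP (-1.40, SE 0.18, adjusted p = 6.11e-06). The treated groups lay below DMSO in both batches.

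Pfkp, the platelet form, was at 37.4 to 52.8 CPM with DMSO and 36.1 to 42.3 CPM with adenosine in batch 1, where the groups overlapped. Its change of -0.43 (adjusted p = 0.0416) lost the call when any library but DMSO replicate 3 was left out (adjusted p of 0.0531 to 0.154), with library totals (-0.24, adjusted p = 0.253) and with limma (-0.36, adjusted p = 0.164). In batch 2 it was at 50.1 to 53 CPM with DMSO, 32.5 to 34.9 CPM with adenosine and 26.9 to 35.4 CPM with AMP, without overlap. The changes there were -0.92 (SE 0.11, adjusted p = 1.35e-06) and -0.98 (SE 0.11, adjusted p = 9.19e-07).

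The PFKFB enzymes make and break fructose 2,6-bisphosphate, the strongest activator of phosphofructokinase, and none of their genes was called lower. Pfkfb2, the heart form, was at 1.49, 1.93 and 2.41 CPM with DMSO and 4.49, 4.23 and 8.17 CPM with adenosine in batch 1 (1.34, SE 0.41, adjusted p = 0.0202). Its batch 2 levels were 3.31, 3.66 and 1.67 CPM with DMSO, 4.87, 7.66 and 8.39 CPM with adenosine (0.96, SE 0.29, adjusted p = 0.00741) and 5.04, 4.84 and 6.83 CPM with AMP (0.68, SE 0.29, adjusted p = 0.0514). All treated libraries lay above their DMSO libraries. The AMP value passed with DESeq2 (0.68, adjusted p = 0.049) and without DMSO replicate 2 (0.89, adjusted p = 0.0299).

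Pfkfb3, the form with the highest kinase activity, was at 6.59, 9.24 and 10.6 CPM with DMSO and 15.3, 15 and 27.3 CPM with adenosine in batch 1 (0.93, SE 0.28, adjusted p = 0.0204). The library at 27.3 CPM, adenosine replicate 3, also had the highest Pfkfb2. Without it the changes were 0.57 for Pfkfb3 (adjusted p = 0.142) and 0.96 for Pfkfb2 (adjusted p = 0.125), and without DMSO replicate 1 they were 0.74 (adjusted p = 0.0774) and 1.16 (adjusted p = 0.0711). In batch 2 Pfkfb3 was not called (0.19, adjusted p = 0.316, and 0.10, adjusted p = 0.609), although with library totals the adenosine value was 0.49 (adjusted p = 0.0156). Pfkfb4 was at 6.05 to 10.4 CPM across all 15 libraries, with changes of -0.33, 0.01 and -0.05 that did not pass.

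Phosphoglucose isomerase and triose phosphate isomerase catalyse near-equilibrium steps on either side of aldolase. Gpi1 was at 362 to 381 CPM with DMSO and 381 to 461 CPM with adenosine in batch 1, where it was not called (-0.04, adjusted p = 0.807). The levels in batch 2 were 362 to 373 CPM with DMSO, 331 to 360 CPM with adenosine (-0.39, adjusted p = 9.84e-05) and 316 to 338 CPM with AMP (-0.45, adjusted p = 3.24e-05). With library totals the batch 1 sign turned and the adenosine value of batch 2 was -0.08 (adjusted p = 0.346).

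Tpi1 was at 252 to 276 CPM with DMSO and 302 to 356 CPM with adenosine in batch 1, above DMSO in CPM, with a fitted change of 0.13 that missed the threshold (adjusted p = 0.383) and 0.33 with library totals (adjusted p = 0.0345). In batch 2 it lay below DMSO instead, at 229 to 260 CPM with adenosine and 220 to 235 CPM with AMP against 284 to 303 CPM. The changes were -0.56 (SE 0.06, adjusted p = 1.46e-06) and -0.63 (SE 0.07, adjusted p = 5.77e-07).

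Aldoa, the aldolase of muscle, which cleaves fructose 1,6-bisphosphate, was the abundant enzyme gene that rose. It lies on chromosome 7 (126795234 to 126800751). Its levels were 1058, 1024 and 997 CPM with DMSO and 2117, 2049 and 2063 CPM with adenosine in batch 1. In batch 2 they were 914, 875 and 917 CPM with DMSO, 1470, 1561 and 1542 CPM with adenosine and 1300, 1145 and 1372 CPM with AMP. The groups did not overlap in either batch. The log2 fold changes were 0.82 (SE 0.10, adjusted p = 5.41e-05), 0.45 (SE 0.07, adjusted p = 4.26e-05) and 0.23 (SE 0.07, adjusted p = 0.0107), and the calls held under every setting tried.

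The lower steps, from glyceraldehyde 3-phosphate to pyruvate, yield the ATP and NADH of the pathway. Gapdh, whose enzyme makes the NADH and whose mRNA often serves as a reference in quantitative PCR, was at 1874, 1674 and 1697 CPM with DMSO and 1586, 1472 and 1317 CPM with adenosine in batch 1. Levels of batch 2 were 1835, 1757 and 1671 CPM with DMSO, 1237, 1243 and 1304 CPM with adenosine and 1324, 1225 and 993 CPM with AMP. No treated library reached its DMSO libraries. Gapdh fell by 0.46 (SE 0.11, adjusted p = 0.00669), 0.78 (SE 0.11, adjusted p = 8.2e-06) and 0.83 (SE 0.11, adjusted p = 5.76e-06) on the log2 scale, of which the first was -0.26 with library totals (adjusted p = 0.0763).

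Pgk1, phosphoglycerate kinase, makes the first ATP of the lower steps and lies on chromosome X (106187100 to 106203699). It was at 410, 383 and 341 CPM with DMSO and 246, 287 and 290 CPM with adenosine in batch 1. In batch 2 it was at 524, 476 and 476 CPM with DMSO, 273, 275 and 283 CPM with adenosine and 297, 286 and 258 CPM with AMP. The treated libraries of batch 2 lay close together and far below DMSO. The changes were -0.66 (SE 0.12, adjusted p = 0.000727), -1.14 (SE 0.08, adjusted p = 9.08e-09) and -1.07 (SE 0.08, adjusted p = 2.43e-08).

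Pgam1, phosphoglycerate mutase, overlapped between groups in batch 1 (203 to 243 CPM with DMSO, 207 to 211 CPM with adenosine) and was not called there (-0.26, adjusted p = 0.0833). It was at 294 to 306 CPM with DMSO, 255 to 268 CPM with adenosine (-0.51, adjusted p = 5.1e-06) and 237 to 249 CPM with AMP (-0.59, adjusted p = 1.56e-06) in batch 2.

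Of the enolases, Eno1 is the form of most tissues and of dividing cells, Eno3 the form of muscle and Eno2 that of neurons. Eno1 was at 2155, 2187 and 2278 CPM with DMSO and 2075, 1810 and 1674 CPM with adenosine in batch 1. Its batch 2 levels were 1786, 1867 and 1825 CPM with DMSO, 1071, 1279 and 1178 CPM with adenosine and 1272, 1208 and 1169 CPM with AMP. The groups did not overlap. The changes were -0.45 (SE 0.11, adjusted p = 0.0083), -0.95 (SE 0.08, adjusted p = 4.56e-08) and -0.85 (SE 0.08, adjusted p = 2.05e-07). Under library totals the batch 1 value was -0.25 (adjusted p = 0.0861).

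Eno3 (chromosome 11, 70657202 to 70662513) was at 119, 98.5 and 60.8 CPM with DMSO and 32.3, 44.9 and 25.6 CPM with adenosine in batch 1, a change of -1.63 (SE 0.24, adjusted p = 0.000197) or 3.1-fold. The levels in batch 2 were 92.7, 120 and 103 CPM with DMSO, 43.4, 75.3 and 54.2 CPM with adenosine (-1.18, SE 0.17, adjusted p = 1.92e-05) and 60.2, 99.4 and 77.8 CPM with AMP (-0.68, SE 0.17, adjusted p = 0.00261). One AMP library lay within the DMSO range, and the other groups did not overlap DMSO. Eno2 had under 2.5 CPM in every library and changed by 0.80 (SE 0.59), 1.22 (SE 0.52) and 0.67 (SE 0.55). Its single call, with adenosine in batch 2 (adjusted p = 0.0458), was 0.61 (adjusted p = 0.312) without adenosine replicate 1, the library at 2.4 CPM, and was also lost without DMSO replicate 1 or 3 (1.09 in both).

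Chrna1, which encodes the alpha subunit of the muscle acetylcholine receptor, was lower beside Eno3 and Pfkm and made up most of the summed level of the differentiation markers. It was at 700, 610 and 399 CPM with DMSO and 168, 224 and 111 CPM with adenosine in batch 1 (-1.96, SE 0.24, adjusted p = 4.97e-05). In batch 2 it was at 566, 633 and 554 CPM with DMSO, 87.3, 153 and 92 CPM with adenosine (-2.71, SE 0.21) and 132, 207 and 111 CPM with AMP (-2.22, SE 0.21). The 16 markers of differentiating myocytes, such as Myog, Mymk and Ckm, were all measured in batch 1, and 4 of 13 tested were called lower (Myog, Acta1, Atp2a1 and Chrna1) and none higher, beside 19.5% of all genes lower. Myh3 (0.623 ± 0.388 and 2.27 ± 1.12 CPM) and Tnni1 (0.834 ± 0.705 and 2.84 ± 0.59 CPM) had higher means with adenosine without a call. Their summed level in the DMSO libraries was 800, 670 and 440 CPM in the order in which Eno3 was 119, 98.5 and 60.8 CPM, and with adenosine it was 206, 269 and 124 CPM beside 32.3, 44.9 and 25.6 CPM of Eno3. In batch 2, where 11 of the 16 were measured, Tnnt2, Atp2a1 and Chrna1 were called lower in each comparison, 3 of 11 beside 34.5% of all genes with adenosine and 31.8% with AMP. Acta1 was at 17.5 ± 9.84, 15.8 ± 15.2 and 17.9 ± 12.5 CPM. The summed level was 592 to 720 CPM with DMSO, 102 to 232 CPM with adenosine and 150 to 284 CPM with AMP, and replicate 2 of each group was highest in both the sum and Eno3. Pfkm did not follow this order in the DMSO libraries, at 18.8, 21.3 and 12.5 CPM in batch 1 and 14.4, 15.3 and 15.5 CPM in batch 2. With adenosine it followed the sum, at 4.97, 6.03 and 2.96 CPM in batch 1. In batch 2 it was at 5.78, 7.66 and 6.01 CPM with adenosine, beside sums of 102, 232 and 124 CPM. With AMP it was highest in replicate 2, at 8.27 CPM. None of the measured markers was at 0 in a group, and their part in the decrease of Eno3 and Pfkm was not tested.

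Pkm, the final and ATP-yielding step, had smaller estimates than Gapdh, Eno1 and Ldha in each comparison. It was at 3548, 3073 and 3077 CPM with DMSO and 3879, 3523 and 3378 CPM with adenosine in batch 1, without a call (-0.04, SE 0.11, adjusted p = 0.795). Levels of batch 2 were 2814, 2727 and 2868 CPM with DMSO, 2767, 3134 and 3217 CPM with adenosine and 2473, 2406 and 2648 CPM with AMP. The AMP libraries lay below the others and those of adenosine overlapped DMSO. The changes were -0.19 (SE 0.07, adjusted p = 0.0228) with adenosine and -0.43 (SE 0.07, adjusted p = 7.27e-05) with AMP. With library totals the first turned to 0.12 (adjusted p = 0.219) and the second was -0.16 (adjusted p = 0.099), so a direction for Pkm with adenosine depended on the scaling. The adenosine call was also lost without DMSO replicate 3 (-0.17) or adenosine replicate 1 (-0.16) or 2 (-0.20).

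**Figure D2:**
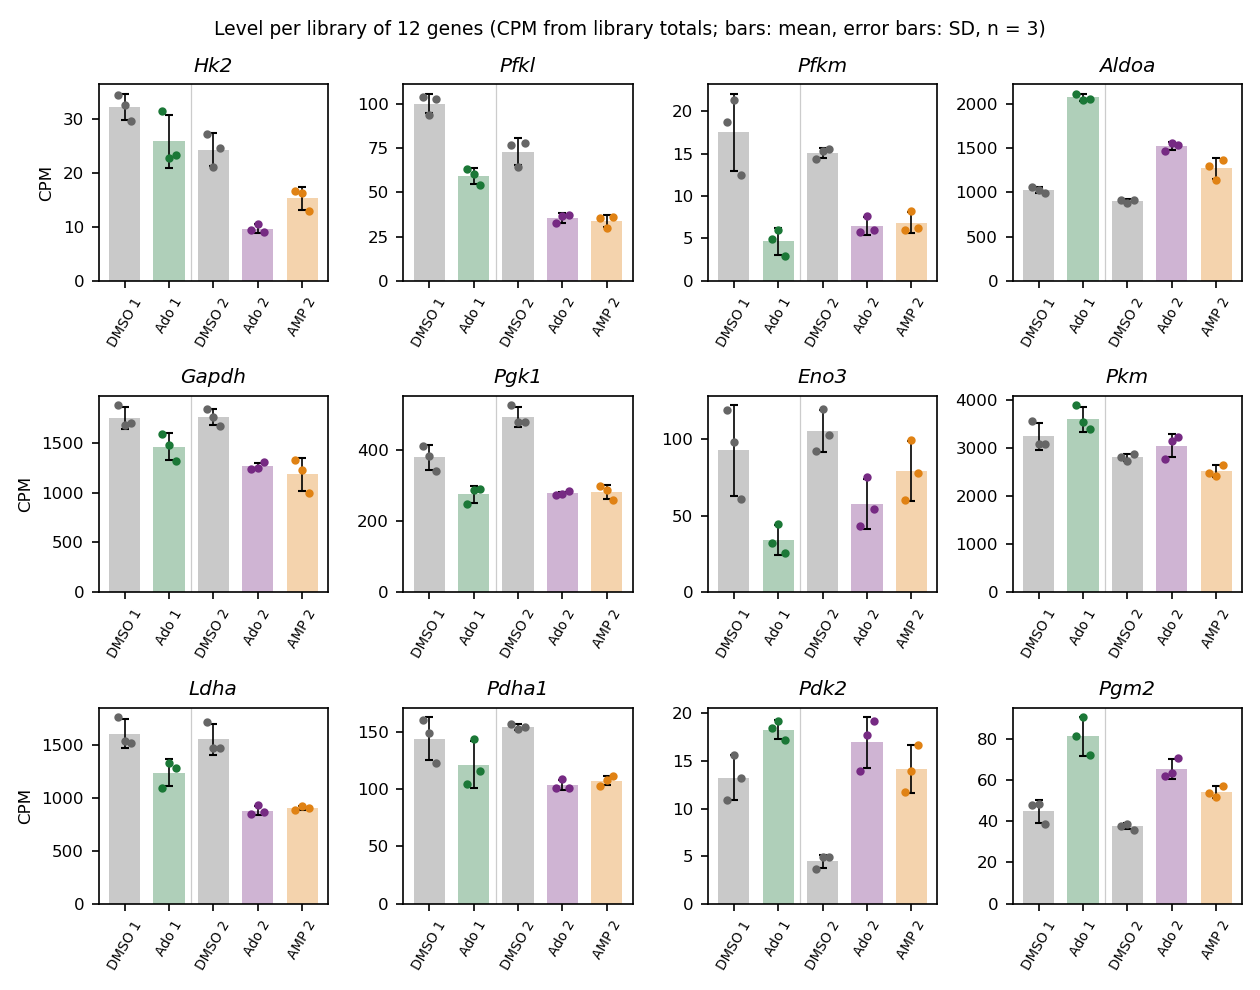
CPM of each library (points), group mean (bars) and SD (error bars, n = 3) of 12 members, with the 2 groups of batch 1 left and the 3 of batch 2 right of the line in each panel. Pfkl, Pfkm, Pgk1 and Ldha were lower and Aldoa and Pgm2 higher in every treated library than in the DMSO libraries of the batch, while Pdk2 with DMSO was at 10.9 to 15.6 CPM in batch 1 and 3.66 to 4.88 CPM in batch 2.

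Lactate dehydrogenase A, which favours pyruvate reduction, fell in each comparison. Ldha (chromosome 7, 46841475 to 46855627) was at 1761, 1536 and 1515 CPM with DMSO and 1090, 1330 and 1279 CPM with adenosine in batch 1. In batch 2 it was at 1713, 1465 and 1465 CPM with DMSO, 845, 929 and 861 CPM with adenosine and 880, 918 and 905 CPM with AMP. The groups were apart in both batches. The changes were -0.58 (SE 0.11, adjusted p = 0.00169), -1.12 (SE 0.07, adjusted p = 3.61e-09) and -1.05 (SE 0.07, adjusted p = 1.2e-08), or 1.49-fold, 2.18-fold and 2.06-fold lower.

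Ldhb, the form typical of oxidative tissue, was at 34.3, 30.5 and 27.4 CPM with DMSO and 19.3, 17.8 and 13.9 CPM with adenosine in batch 1 (-1.05, SE 0.19, adjusted p = 0.000835). The groups of batch 2 overlapped, at 14.2 to 17.1 CPM with DMSO, 12.9 to 15.1 CPM with adenosine and 9.54 to 15.8 CPM with AMP. The changes there were -0.46 (SE 0.16, adjusted p = 0.0191), lost without DMSO replicate 1 or adenosine replicate 2 (-0.39 in both), and -0.56 (SE 0.16, adjusted p = 0.00695). Both were lost with library totals (-0.15 and -0.29).

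Lactate crosses the membrane through monocarboxylate transporters. Slc16a1 (MCT1) was at 183 to 230 CPM with DMSO and 223 to 285 CPM with adenosine in batch 1 and was not called (0.13, adjusted p = 0.451). Its batch 2 levels were 222 to 239 CPM with DMSO, 191 to 224 CPM with adenosine (-0.45, SE 0.07, adjusted p = 5.76e-05, and -0.15 with library totals, adjusted p = 0.124) and 166 to 186 CPM with AMP (-0.66, SE 0.08, adjusted p = 1.59e-06). Slc16a3 (MCT4), the exporter of glycolytic cells, was low at 3.07 to 9.11 CPM in all libraries. With AMP it was at 3.33, 5.46 and 3.07 CPM against 6.34, 7.93 and 6.13 CPM with DMSO (-1.04, SE 0.28, adjusted p = 0.00389), and neither adenosine comparison was called, although without adenosine replicate 1 the batch 2 value was -0.77 (adjusted p = 0.0255).

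At the entry to the mitochondrial path, Pdha1 was called lower in all 3 comparisons and Pdhb higher in 1. The 2 genes encode the subunits of the E1 enzyme of pyruvate dehydrogenase, and the difference between them was not tested. Pdha1, the alpha subunit that carries the regulatory phosphorylation sites, was at 160, 149 and 123 CPM with DMSO and 104, 144 and 116 CPM with adenosine in batch 1, where the groups overlapped. The change of -0.44 (SE 0.14, adjusted p = 0.0256) lost its call without DMSO replicate 1 or 2 or adenosine replicate 1 or 3 (adjusted p of 0.0625 to 0.0986), with library totals (-0.24, adjusted p = 0.198) and with limma (-0.44, adjusted p = 0.0883). In batch 2 Pdha1 was at 157, 152 and 154 CPM with DMSO, 101, 109 and 101 CPM with adenosine (-0.88, SE 0.07, adjusted p = 1.38e-08) and 103, 108 and 111 CPM with AMP (-0.79, SE 0.07, adjusted p = 6.47e-08), far apart from DMSO.

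Pdhb, the beta subunit, was at 138 to 161 CPM with DMSO and 176 to 197 CPM with adenosine in batch 1. It was at 124 to 139 CPM with DMSO, 174 to 205 CPM with adenosine and 152 to 180 CPM with AMP in batch 2, above DMSO in CPM throughout. The fitted changes were 0.13 (adjusted p = 0.362), 0.19 (adjusted p = 0.029) and 0.01 (adjusted p = 0.894). The single call was lost without DMSO replicate 1 (0.20, adjusted p = 0.053), DMSO replicate 2 (0.15, adjusted p = 0.131) or adenosine replicate 3 (0.14, adjusted p = 0.126).

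Pyruvate dehydrogenase kinases shut the complex off, and their 4 genes did not move together. Pdk2 (chromosome 11, 95026258 to 95041354), the kinase found in most tissues, was at 3.66, 4.88 and 4.86 CPM with DMSO in batch 2, at 14, 17.7 and 19.2 CPM with adenosine and at 11.7, 14 and 16.7 CPM with AMP. The treated libraries lay well above DMSO. The changes were 1.62 (SE 0.19, adjusted p = 1.48e-06) and 1.40 (SE 0.19, adjusted p = 1.02e-05), or 3.07-fold and 2.63-fold higher. In batch 1 Pdk2 was at 10.9, 15.6 and 13.2 CPM with DMSO and 18.5, 19.2 and 17.2 CPM with adenosine, apart in CPM, with a fitted change of 0.28 that missed the threshold (SE 0.21, adjusted p = 0.311). The 2 tables were counted and deposited separately, so their DMSO levels are not directly comparable.

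Pdk4, the kinase induced by fasting and by FOXO factors and the most abundant of the 4 per length, was at 131 to 184 CPM in batch 1 and 55.7 to 76.5 CPM in batch 2. Its changes of -0.36 (adjusted p = 0.0505), -0.17 (adjusted p = 0.0823) and -0.10 (adjusted p = 0.309) did not pass, and the values of batch 2 were 0.14 and 0.17 with library totals. Pdk4 in batch 1 passed with RLE size factors (-0.36, adjusted p = 0.0473), with DESeq2 (-0.37, adjusted p = 0.0484) and without adenosine replicate 2 (-0.52, adjusted p = 0.0134), and in batch 2 without DMSO replicate 2 (-0.22, adjusted p = 0.0401). Pdk3 was at 16.9 to 24.8 CPM in all libraries and overlapped between all groups. Its calls in batch 2 (-0.34, adjusted p = 0.036, and -0.43, adjusted p = 0.013) were lost with library totals (-0.03 and -0.16), without DMSO replicate 3 (-0.29 and -0.38), and in part without DMSO replicate 2 (-0.32), adenosine replicate 1 (-0.27) or AMP replicate 1 (-0.31). Pdk1, a known HIF1 target, had 0.939 to 5.38 CPM and changed by -0.18, -0.79 and -0.99 without a call. It passed without adenosine replicate 1 of batch 2 (-1.23, adjusted p = 0.0264), and for AMP without AMP replicate 1 (-1.25, adjusted p = 0.0431) or with only the 2 groups in the fit (-0.98, adjusted p = 0.035).

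The share of each isoform in the summed deposited FPKM of its family does not depend on the scaling between libraries. With 3 against 3 libraries, the exact permutation test cannot go below a two-sided p of 0.1, which 42 of 86 share comparisons reached, and the lowest adjusted p over the 86 was 0.205. No share difference could therefore pass, and shares are given as descriptions. Hk2 made up 27.2% ± 2.58 of hexokinase mRNA with DMSO and 21.9% ± 1.01 with adenosine in batch 1. The Hk2 share in batch 2 was 23.4% ± 2.7 with DMSO, 12% ± 0.162 with adenosine and 17% ± 2.56 with AMP (SD, n = 3 each), without overlap between the groups, with Hk1 making up the rest.

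Within phosphofructokinase, where all 3 genes fell, the share of Pfkm was 17.4% ± 3.87 with DMSO and 8.03% ± 2.21 with adenosine in batch 1. It was 18.8% ± 1.42, 15.8% ± 1.96 and 17.5% ± 4.36 with DMSO, adenosine and AMP in batch 2, where the groups overlapped. Pfkp took a larger share after each treatment, with 14.7% ± 1.96 against 21.9% ± 2.55 in batch 1, and 20.1% ± 1.8 against 25.8% ± 2.27 and 24.8% ± 1.83 in batch 2, without overlap of treated and DMSO libraries. Eno3 made up 11.5% ± 3.55 of enolase mRNA with DMSO and 5.41% ± 1.48 with adenosine in batch 1, but 15.1% ± 1.39, 13% ± 2.19 and 16.7% ± 3.77 in the groups of batch 2, which overlapped.

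Ldhb shifted in opposite directions in the 2 batches. Its share of lactate dehydrogenase mRNA was 3.51% ± 0.165 with DMSO and 2.59% ± 0.625 with adenosine in batch 1. The batch 2 shares were 1.86% ± 0.0497 with DMSO, 2.93% ± 0.328 with adenosine and 2.59% ± 0.596 with AMP. Treated and DMSO libraries were apart in both batches, below in the first and above in the second, and the opposite shift was not tested.

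Pdk2 held 7.07% ± 1.63 of pyruvate dehydrogenase kinase mRNA with DMSO and 10.3% ± 1.03 with adenosine in batch 1, and 4.98% ± 0.853, 15.7% ± 1.36 and 13.6% ± 1.1 in the groups of batch 2. Pdk4 kept the largest share in each group, between 57.2% ± 1.91 and 79.7% ± 2.19. Of the PFKFB genes, Pfkfb4 held 56.7% ± 5.32 with DMSO and 34.9% ± 10.1 with adenosine in batch 1, where Pfkfb3 held 35.2% ± 4.29 and 49.9% ± 7.44. Pgm1 made up 40.7% ± 4.93 of the Pgm1 and Pgm2 sum with DMSO and 24.5% ± 4.36 with adenosine in batch 1. The share in batch 2 was 42.8% ± 4.88, 19.8% ± 1.79 and 20.3% ± 5.07, with every treated library below every DMSO library.

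**Figure D3:**
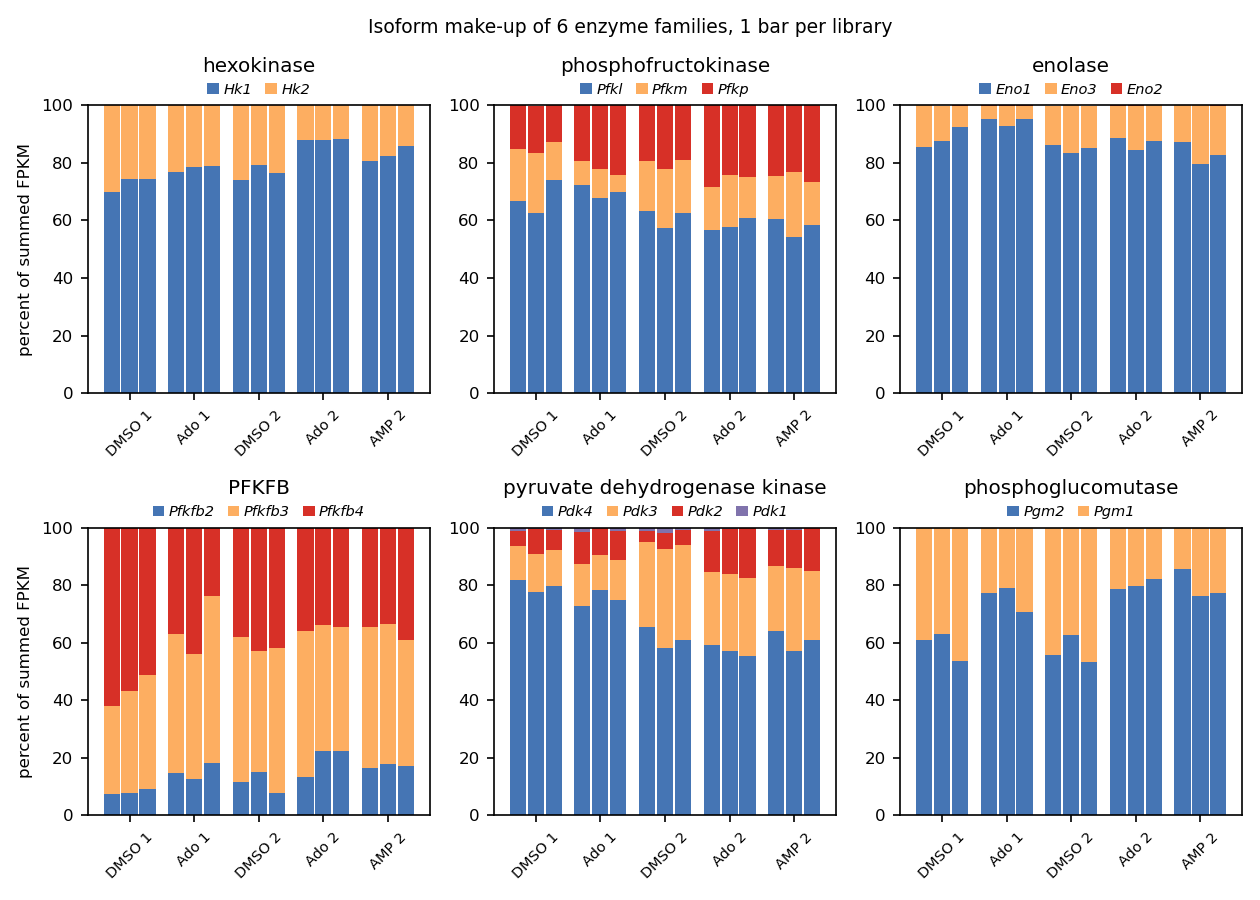
Share of each isoform (y axis, percent of the family's summed FPKM) in each of 15 libraries (bars, grouped by treatment and batch) for 6 enzyme families. The Hk2 share was smallest with adenosine in batch 2 (12%), the Pgm1 share was smaller in all treated libraries, and the Pdk2 share was larger after treatment in batch 2.

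Whether the adenosine effect differed between the batches was tested as an interaction over 13037 genes. It differed for 9 of 31 members, 8 of them lower in batch 2 than in batch 1 and 1 higher, against 10.2% of all genes called, 5.28% higher and 4.88% lower. The median difference of the members was -0.35, beside 0.00 for all genes. The dose was 0.05 mM in batch 1 and 0.1 mM in batch 2, so dose and batch cannot be told apart. Hk2 fell more in batch 2 (difference -1.13, SE 0.23, adjusted p = 0.00702). Tpi1 was not called in batch 1 (95% interval -0.11 to 0.37) and was lower in batch 2 (difference -0.69, SE 0.12, adjusted p = 0.00356). Pdk2 was not called in batch 1 (95% interval -0.17 to 0.72) and was higher in batch 2 (difference 1.34, SE 0.28, adjusted p = 0.00793). Its mean was 13.2 CPM with DMSO and 18.3 with adenosine in batch 1, and 4.47 and 17 CPM in batch 2. Hk2, Tpi1 and Pdk2 kept their call under every setting tried.

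Of the other 6, Pgk1 (-0.47), Eno1 (-0.49), Ldha (-0.54) and Pgm1 (-0.68) were more strongly lower in batch 2, Slc16a1 (-0.58) was called lower in batch 2 and not in batch 1, and Aldoa (-0.37) rose less there. Each of these 6 lost its call when 1 or more single libraries were left out, in Ldha DMSO replicate 1 of batch 2 (-0.45, adjusted p = 0.0575). Under library totals 2 members remained called lower, in place of 8, while all genes called lower went from 636 to 299. The member and all-gene medians were then -0.24 and 0.11. For Pfkm the difference was 0.58 (95% interval -0.16 to 1.32), for Eno3 0.45 (-0.23 to 1.12) and for Ldhb 0.59 (0.11 to 1.08, adjusted p = 0.11), none of which passed.

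**Figure D4:**
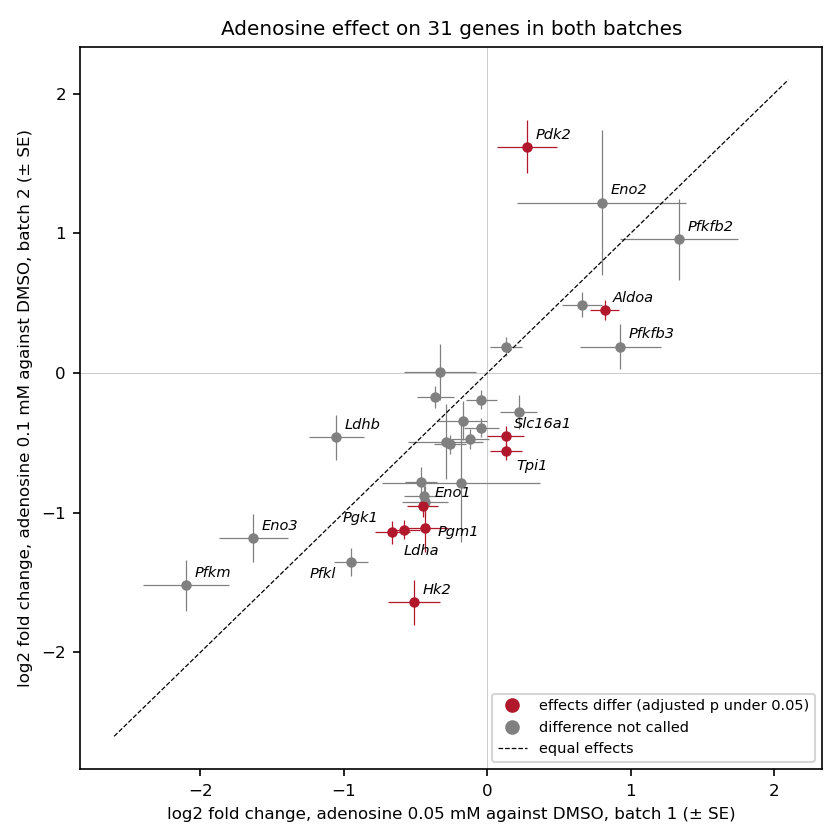
Log2 fold change of 31 members with adenosine at 0.05 mM in batch 1 (x axis) and at 0.1 mM in batch 2 (y axis), with SE bars and the line of equal effects. The 9 red genes passed the test of the difference: Pdk2 lies above the line, and Hk2, Tpi1, Slc16a1, Pgm1, Ldha, Pgk1, Eno1 and Aldoa lie below it.

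AMP and adenosine differ by a phosphate group and were given at 0.25 mM and 0.1 mM in batch 2, so their doses differ. In the fit that left replicate numbers unpaired, Hk2 alone among the 31 members was called different. It was at 16.7, 16.3 and 12.9 CPM with AMP and 9.42, 10.6 and 8.98 CPM with adenosine, which do not overlap. The log2 difference was 0.71 (SE 0.16, 95% interval 0.36 to 1.05, adjusted p = 0.0149), against 6.51% of all genes called, 4.52% higher and 2% lower. The call was lost without adenosine replicate 3 (0.65, adjusted p = 0.0809), AMP replicate 1 (0.61, adjusted p = 0.0693) or AMP replicate 2 (0.65, adjusted p = 0.0586).

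No member was called lower with AMP than with adenosine by edgeR, where 5 were lower and 2 higher at an unadjusted p under 0.05. DESeq2 called 2 lower, Aldoa (-0.23, adjusted p = 0.0164) and Pkm (-0.25, adjusted p = 0.00239), and Pkm also passed without adenosine replicate 1 (-0.27, adjusted p = 0.049) or AMP replicate 3 (-0.24, adjusted p = 0.0474). The 6 members whose AMP and adenosine libraries did not overlap (21.8% of all genes) were Hk2, higher with AMP, and Aldoa, Pgam1, Pkm, Slc16a1 and Pgm2, lower with AMP. For 25 of 31 members the 95% interval of the difference lay within 1.5-fold either way, for example Ldha (0.08, -0.08 to 0.24), Pgk1 (0.06, -0.11 to 0.23) and Pfkl (-0.03, -0.25 to 0.20). Those of Eno3 (0.50, 0.13 to 0.87), Slc16a3 (-0.55, -1.15 to 0.05), Eno2 (-0.55, -1.56 to 0.45), Pfkfb2 (-0.28, -0.86 to 0.30) and Pdk1 (-0.20, -1.15 to 0.75) reached further. Eno3 passed without adenosine replicate 2 (0.72, adjusted p = 0.0174) and with the replicate number as a block (0.51, adjusted p = 0.000537).

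Genes of the neighbouring pathways were counted in the same fits. Their lists were chosen with earlier results of these data known and were not tested as sets. The counts that follow stand beside 19.6% of all genes called higher and 19.5% lower in batch 1, 34.9% and 34.5% with adenosine and 33.7% and 31.8% with AMP in batch 2. Of 17 citric acid cycle genes, adenosine lowered 4 in batch 1, with the other 13 not called. In batch 2 adenosine lowered 11 and raised 3, and AMP lowered 11 and raised 1, with list medians of -0.13, -0.31 and -0.37. Idh2, mitochondrial isocitrate dehydrogenase, fell from 148 ± 37.5 to 83.4 ± 16.6 CPM in batch 1 (-1.02, SE 0.19, adjusted p = 0.00093). In batch 2 it fell from 218 ± 17.6 CPM to 71.4 ± 12.3 CPM with adenosine (-1.92, SE 0.13) and 69.9 ± 15.4 CPM with AMP (-1.91, SE 0.13). Citrate synthase, Cs, fell by 0.93, 1.39 and 1.31 on the log2 scale in the same order. Of 9 genes of the shuttles that carry cytosolic NADH into mitochondria, 6, 7 and 6 were called lower and 2 were called higher in each comparison. The aspartate carrier gene Slc25a12 led them with -1.71, -1.68 and -1.57, and Got1 changed by -0.58, -1.21 and -1.09.

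Among 9 partners of pyruvate dehydrogenase and pyruvate carriers, 1 was higher and 1 lower in batch 1, 2 higher and 3 lower with adenosine in batch 2, and 2 higher and 5 lower with AMP. The 2 subunits of the mitochondrial pyruvate carrier moved apart in batch 1 and with AMP. Mpc2 rose by 0.63 and 0.66 there, and by 0.95 with adenosine in batch 2, while Mpc1 changed by -0.56 and -0.64. Dlat, the E2 core of the complex, fell by 0.53 and 0.60 in batch 2.

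The pentose phosphate pathway, which branches from glucose 6-phosphate and makes NADPH and ribose, had 4 of 10 genes higher and 1 lower in batch 1, and 5 higher and 4 lower in both comparisons of batch 2. Pgd rose from 255 ± 19.9 to 508 ± 34.9 CPM in batch 1 (0.80, SE 0.11, adjusted p = 0.000163). Tkt rose from 103 ± 6.67 CPM to 229 ± 7.75 CPM with adenosine and 178 ± 13.4 CPM with AMP in batch 2. Prps2, which makes the ribose donor of nucleotide synthesis, fell by 0.92, 1.24 and 1.25 on the log2 scale. Of 3 tested genes of gluconeogenesis, 1 was called lower and 1 higher in each comparison. Pck2, the mitochondrial enzyme that turns oxaloacetate into phosphoenolpyruvate, fell by 2.65, 2.49 and 1.69, and G6pc3, a glucose 6-phosphatase, rose by 0.78, 1.06 and 0.80.

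Of 23 other isoforms of glycolysis and glucose transport, 14 were tested. The counts were 5 higher and 2 lower in batch 1, 7 and 3 with adenosine and 7 and 4 with AMP in batch 2. Adpgk, a hexokinase that uses ADP, rose by 0.78 in batch 1, and Slc2a8, an intracellular glucose transporter, rose by 1.41 and 1.16 in batch 2. Of 17 glycogen genes, 14 were tested in batch 1 (1 higher, 3 lower) and 13 in batch 2 (3 higher and 4 lower with adenosine, 1 and 4 with AMP), and the branching enzyme Gbe1 fell by 0.82 and 0.92 in batch 2. Of 6 tested hexosamine genes, 1 was higher in batch 1, and 2 were higher and 1 lower in each comparison of batch 2, with Gfpt2 at -1.18 and -1.26.

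Among 22 regulators of glycolytic genes, 8 of 21 tested were higher and 3 lower in batch 1, and of 20 tested in batch 2, 10 were higher and 4 lower with adenosine and 10 higher and 3 lower with AMP. Txnip, which restrains glucose uptake and is itself induced by glucose through ChREBP, was at 37 ± 5.3 CPM with DMSO and 238 ± 29.2 CPM with adenosine in batch 1 (2.49, SE 0.15, adjusted p = 3.53e-07). Epas1, the gene of HIF2 alpha, rose by 2.66 there. In batch 2 Txnip was at 8.41 ± 0.87 CPM with DMSO, 158 ± 10.5 CPM with adenosine (3.93, SE 0.10) and 117 ± 3.96 CPM with AMP (3.53, SE 0.10). Mlxipl, the gene of ChREBP, rose by 1.81 in batch 1 and 2.45 with adenosine in batch 2. Foxo1 rose by 1.03 and 0.82 in batch 2. The regulators named here had the largest changes and all rose, and those called lower were not among them. Between AMP and adenosine, edgeR called Myc higher with AMP (0.32, SE 0.09, adjusted p = 0.0413). It called Mlxipl (-0.84, adjusted p = 0.0376) and Txnip (-0.39, adjusted p = 0.00672) lower with AMP.

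**Figure D5:**
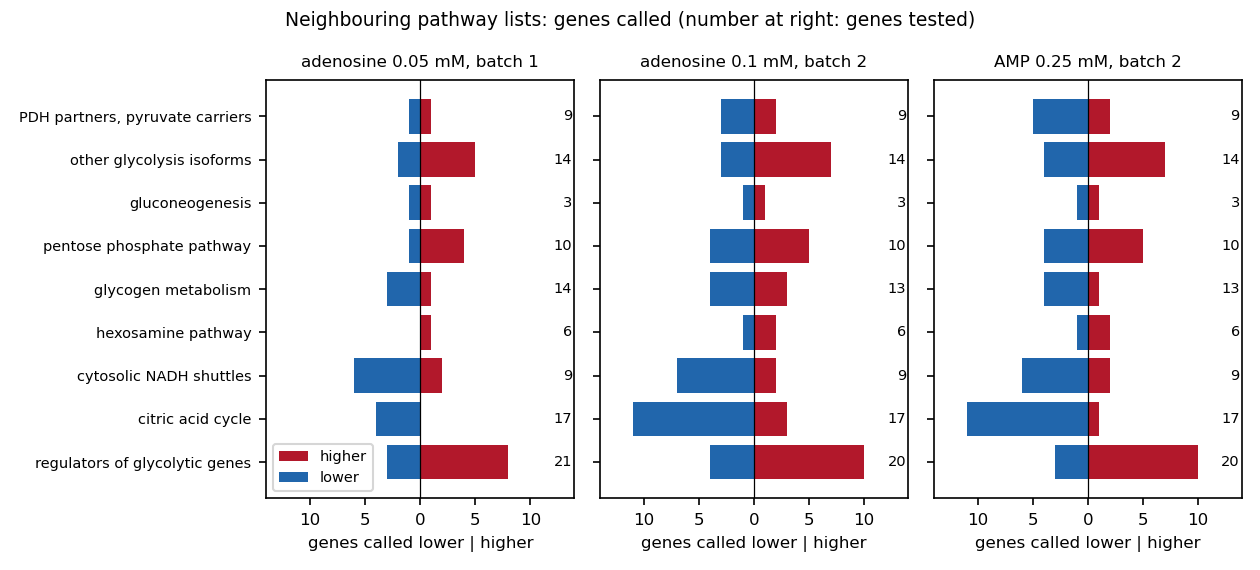
Genes called lower (blue, to the left) and higher (red, to the right) in 9 neighbouring pathway lists (y axis) for the 3 comparisons with DMSO, with the number tested at the right of each row. The citric acid cycle had 4, 11 and 11 genes lower, and the regulators of glycolytic genes had 8, 10 and 10 higher.

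In the authors' deposited table of batch 1, 17 of 31 members were called, 4 higher and 13 lower with adenosine once its sign (DMSO over adenosine) was turned. All 31 had the same sign as the values given here, and 15 were called by both. Near-identical processed copies are known for Gapdh, Pkm, Ldha, Aldoa, Pgk1, Pgam1, Eno1 and Tpi1, and reads that matched a copy could have been lost or split, so their absolute levels are uncertain. Reads were counted without strand, so those of an overlapping antisense gene cannot be told apart from the member's own.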

How the data were processed

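RNA of 15 libraries was made into cDNA with Smart-Seq2 chemistry, per the labels' protocols. For either batch the authors deposited a matrix of raw gene counts. Batch 1 was counted with featureCounts 1.6.4 on paired-end exon reads of Ensembl GRCm38 without a strand setting, per the file headers. Trim Galore, STAR, Subread, DESeq2 and mm10 are named in the submitters' processing notes, while for batch 2 no source used here gives the counting settings. The authors also deposited FPKM per gene, and for batch 1 log2 fold changes of DMSO over adenosine with adjusted p-values. Of the batch 2 counts, 43 lines that name no gene (0.0589% of counts) were left out, and the smallest row total was 101, so rarer genes were not analysed there.

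Changes were tested with edgeR 4.0.16 (R 4.3.3): TMM scaling, the default filter on low counts by group, the quasi-likelihood F test and Benjamini-Hochberg adjustment over all genes tested, with a threshold of 0.05. Each batch was fitted with all its groups, and the difference between batches as an interaction. The 95% intervals use the t distribution with edgeR's degrees of freedom. Alternatives were RLE factors, library totals, no filter, DESeq2 1.42.0, limma 3.58.1 on log2(FPKM + 1), the replicate number as a block, fits of 2 groups and each library left out. The script was tested on simulated counts. All members, and of each pathway list up to 3 called genes with the largest change and at least 5 CPM, could be named; from these the text names a few. Members and lists were chosen with earlier results of these data known. Promoter windows came from RefSeq. Replicate numbers were treated as unpaired.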

Additional observations from a re-analysis of the deposited data

Results flagged for a closer look

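The adenosine effect differed between the batches for 9 members (edgeR's quasi-likelihood test of the interaction, adjusted over 13037 genes, 3 libraries a group), and dose and batch cannot be told apart. Values are the log2 effect in batch 2 minus that in batch 1. Hk2 (-1.13, adjusted p = 0.00702), Tpi1 (-0.69, adjusted p = 0.00356) and Pdk2 (1.34, adjusted p = 0.00793) held with each single library left out and under each other setting tried.

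The other 6 were lost with library totals and with some libraries left out. Ldha (-0.54, adjusted p = 0.0138) was -0.45 without DMSO replicate 1 of batch 2 (adjusted p = 0.0575). Slc16a1 (-0.58, adjusted p = 0.0166) was -0.51 and -0.46 without DMSO replicate 2 or adenosine replicate 3 of batch 1, and -0.53 and -0.55 without DMSO replicate 1 or 2 of batch 2. Pgk1 (-0.47, adjusted p = 0.0192) was -0.41 without adenosine replicate 3 of batch 1, and -0.40, -0.45, -0.45 and -0.45 without DMSO replicates 1, 2, 3 or adenosine replicate 2 of batch 2. Eno1 (-0.49, adjusted p = 0.0277) was -0.46 without DMSO replicate 2 of batch 1, and -0.43 to -0.49 without any library of batch 2 but adenosine replicate 2. Aldoa (-0.37, adjusted p = 0.0308) was -0.34 and -0.35 without DMSO replicate 2 or adenosine replicate 3 of batch 1, and -0.31 to -0.37 without any DMSO or adenosine library of batch 2. Pgm1 (-0.68, adjusted p = 0.0442) was -0.67, -0.60 and -0.55 without DMSO replicate 1 or 2 or adenosine replicate 3 of batch 1, and -0.55 to -0.76 without any DMSO or adenosine library of batch 2.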

How the results depend on the processing

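Calls held under every setting tried for 8 of 15 members in batch 1, 17 of 25 with adenosine and 18 of 24 with AMP in batch 2, and 3 of 9 between batches. Library totals gave 7 higher (from 4) and 6 lower (from 11) members in batch 1, 5 higher with AMP (from 3), 2 lower in the batch difference (from 8), and Pkm at 0.12 with adenosine in batch 2. Of all genes, 4030 were then higher (from 2714) and 1948 lower (from 2706) in batch 1. In the batch difference 950 were higher (from 688) and 299 lower (from 636). limma on log2(FPKM + 1) gave 2 higher and 6 lower in batch 1 and 0 higher for AMP against adenosine (from 1). DESeq2 called 2 lower for AMP against adenosine (from 0). The cause of these differences was not tested.

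With single libraries left out, members higher in batch 1 ranged from 2 (without DMSO replicate 1 or adenosine replicate 3) to 4. For AMP against adenosine, 0 (without adenosine replicate 3, AMP replicate 1 or AMP replicate 2) to 2 (without adenosine replicate 2) were higher, 0 to 1 lower (without adenosine replicate 1 or AMP replicate 3), and all genes called ranged from 408 (without adenosine replicate 3) to 991, from 851. AMP replicates 1 and 2 left out gave 555 and 519. For the batch difference, 1 to 2 members were higher, 2 (without DMSO replicate 1 of batch 2) to 9 lower, and 622 (without DMSO replicate 2 of batch 2) to 1880 of all genes were called, from 1324. A lower count of 4 members came without DMSO replicate 2 or adenosine replicate 3 of batch 1 or DMSO replicate 3 of batch 2, of 3 without DMSO replicate 2 of batch 2, and of 5 without adenosine replicate 1 or 2 of batch 2.

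With the replicate block the genes called were 5004 in batch 1, 9239 with adenosine and 8742 with AMP in batch 2, 1159 for AMP against adenosine and 1169 for the batch difference. It called 2 members higher with AMP than adenosine, Hk2 and Eno3 (0.51, adjusted p = 0.000537), and called Slc2a1 with adenosine (adjusted p = 0.044) and Pdk1 with AMP (adjusted p = 0.0272) in batch 2. Not called with it were Pfkp in batch 1 (adjusted p = 0.0599), Eno2 with adenosine in batch 2 (adjusted p = 0.0606), and Eno1 and Aldoa in the batch difference (adjusted p of 0.052 and 0.07). For 2 libraries with 1 shared replicate number, the correlation of their deviations from their group means had a median of 0.0414 in batch 1 (-0.0885 to 0.142) and 0.149 in batch 2 (-0.0591 to 0.392), and between different numbers at -0.021 (-0.256 to 0.191) and -0.102 (-0.332 to 0.19). Not every same-number value passed 0.1, so the main fits left the numbers unpaired. The same-number median was the higher one in both batches, so these fits may ignore a pairing. Whether same-number libraries of batch 2 share an origin was not tested.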
